A study of Bos taurus with 94 samples.

Results

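The liver-restricted genes described here are 100 of the 24616 Ensembl gene identifiers measured in 94 RNA sequencing libraries of Hereford cattle tissues. They were chosen by their measured level: on the scale log2(FPKM + 1), these genes stood farthest above their highest value in the other 93 libraries when read in liver. FPKM is a fragment count scaled to transcript length and to the mapped fragments of the library. A further 2 identifiers, which would have ranked 5 and 73, were left out of the choice. All libraries carry the breed label Hereford and the age label adult, although the tissue label of 1 of them reads fetal testis. Tissues were snap frozen, and no treatment or animal is named. They fall into 35 tissue groups, of which the liver is 1 library, the kidney 2 (cortex and medulla) and the intestine 6 (duodenum, jejunum, ileum, caecum, ascending and descending colon). The replicate numbers used below for follicle and mammary libraries only give their listed order, since the labels hold none. The mammary libraries are labelled Mammary and Mammary gland. With 1 liver library there is no replicate of the liver value, so every level in liver and every gap below is a description with no test.

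The liver is made up mainly of hepatocytes. These cells secrete most proteins of the blood plasma, make bile acids from cholesterol, turn ammonia into urea, release glucose in fasting and break down drugs and steroids. Kidney tubule cells and the absorptive cells of the small intestine are known to share parts of this chemistry, such as glucose production, amino acid breakdown and the conjugation of foreign compounds. The files do not pair the identifiers with gene names, so which of these functions the genes serve is not given here. The label of the liver library could not be checked against hepatocyte markers for the same reason, and only a few identifiers are printed. Other members are called by their rank, where rank 1 has the largest gap. In bulk tissue, fewer cells of a type and less RNA per cell cannot be told apart.

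Together the 100 genes summed to 124173 FPKM in liver, 19.9% of that library's total. Their liver levels ran from 18.6 to 7737 FPKM with a median of 396. In liver, 31 of them stood at 1000 FPKM or more, 51 between 100 and 1000, and 18 below 100. The choice therefore took both abundant and modest transcripts: 39 were among the 100 most abundant genes of the liver library, while the least abundant of the 100 ranked 3211 there. The 10 members with the highest liver levels held 48.1% of the members' sum. Because abundant genes lower the FPKM of all others in a library, these shares depend on what else the liver library contains.

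ENSBTAG00000026917 had the largest gap. It stood at 4908 FPKM in liver, and its next libraries were follicle replicate 1 at 1.72, follicle replicate 3 at 1.70 and the ureter at 1.18 FPKM. The liver was 2851 times the second-highest library, a gap of 10.82 on the log2(FPKM + 1) scale, and the gene was listed at 0 in 77 of the other 93 libraries. ENSBTAG00000017294, with the next gap (10.75), stood at 7157 FPKM in liver, 3.15 in follicle replicate 3, 2.99 in follicle replicate 1 and 2.27 in the anterior eye, and was listed at 0 in 62 others. Neither gene was above 0 in any kidney or intestinal library.

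Across the members the gap ran from 3.93 to 10.82 with a median of 6.14. For the 97 members with any value outside liver, the liver was 15.8 to 4439 times the second-highest library, with a median of 108.5. The 3 members of ranks 29, 54 and 57 were listed at 0 in every other library, at 126, 64 and 57.9 FPKM in liver. The liver held a median of 97.7% of a member's FPKM summed over all libraries, and 59.4% at the lowest. The 3 genes just inside the choice had gaps of 3.98, 3.93 and 3.93, and the 3 just outside 3.85, 3.84 and 3.78, so the choice has no break at its edge.

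**Figure D1:**
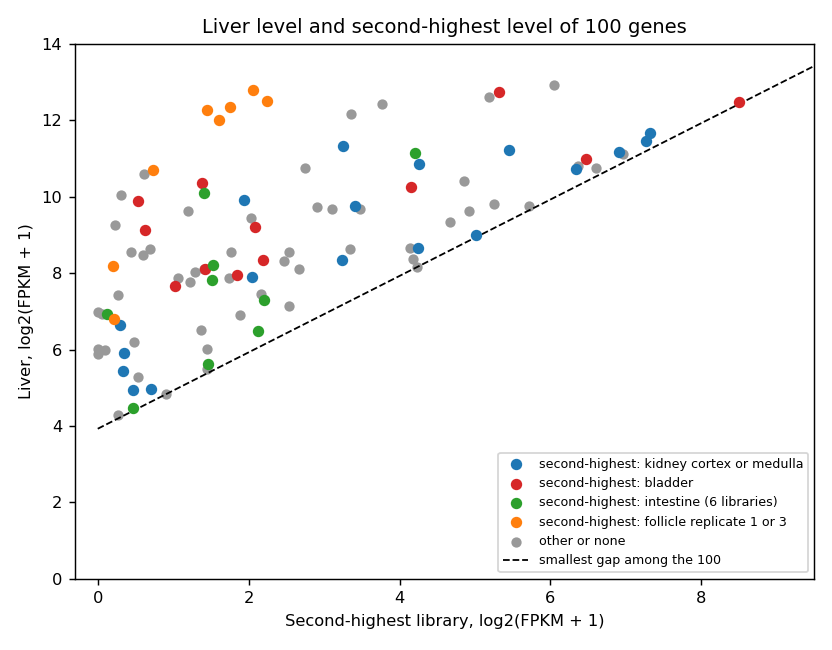
Each point is 1 of the 100 genes, with its level in the second-highest library on the x axis and its level in liver on the y axis, both as log2(FPKM + 1), coloured by the tissue of the second-highest library. The genes with follicle replicates 1 and 3 second sit at low x values, and the gene nearest the right edge reached 360.9 FPKM in bladder and 5717 in liver.

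The word restricted holds to a different degree for different members. Of the 100, 28 reached an FPKM of 1 in the liver only, 34 also in 1 to 4 other libraries, 16 in 5 to 9 and 22 in 10 or more. In 82 of them the median of the other 93 libraries was 0. At the other end stood ENSBTAG00000016177 (rank 92), with 2226 FPKM in liver and an FPKM of 1 or more in 88 of the 93 others. Its second-highest library was mammary replicate 2 at 123.6 FPKM, followed by the vesicular gland at 85.6 and kidney, pelvic and heart fat (labelled KPH fat) at 68.5, and its median outside liver was 9.96. This gene was chosen for a gap in level, not by absence elsewhere. Only 3 members reached an FPKM of 1 in 40 or more other libraries.

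The second-highest tissue of each gene was spread over 40 libraries. Kidney cortex was second for 16 members and bladder for 12. Jejunum and bull testis were second for 5 each, and the libraries labelled diaphragm, follicle replicate 1 and follicle replicate 3 for 4 each. The anterior eye, fetal testis, left lung and vesicular gland followed with 3 each. Duodenum, kidney medulla, pons, posterior pituitary, head of the epididymis (labelled caput) and mammary replicate 2 had 2 each. A further 23 libraries were second for 1 member each. These were abomasum, adrenal, bone marrow, caecum, diencephalon, fornix of the vagina, ileum, KPH fat, lymph nodes, omasum, rumen papillae, pituitary stalk, salivary gland, spleen, thalamus, ureter, urethra, white blood cells, bulbourethral gland, cervical lining, ipsilateral infundibulum, caruncular endometrium and contralateral intercaruncular endometrium. For 3 members there was no second tissue, since all others were listed at 0.

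How much a second place says depends on the level behind it. The second-highest level was 10 FPKM or more for 28 members, 1 to 10 for 44, 0.1 to 1 for 22 and under 0.1 for 6. Of the 28 at 10 or more, 8 had kidney cortex second, 4 bladder, 2 the left lung and 2 the library labelled diaphragm. As a share of the liver level, the second library was at 1% or more for 47 members and at 5% or more for 9, with a highest value of 6.31%. Among members with a second level of 10 FPKM or more, the median liver level was 1762 FPKM, against 141 for those at 0.1 to 1. This order follows partly from the rule, since a gene with a high second level needs a high liver level to be chosen.

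**Figure D2:**
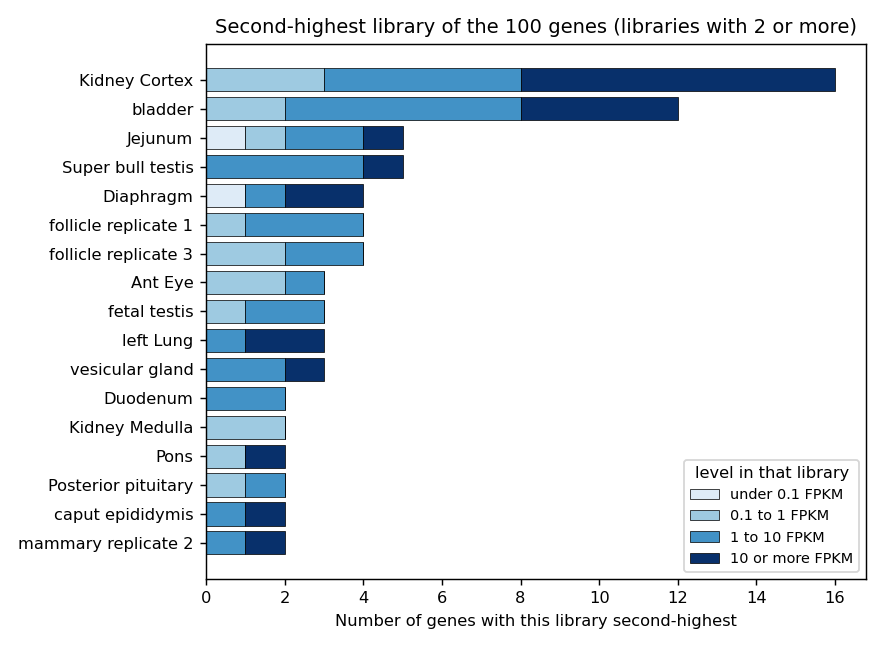
Bars count the genes for which a library was second-highest, for the 17 libraries with 2 or more such genes, shaded by the FPKM reached in that library. Kidney cortex (16) and bladder (12) lead, and 8 of the 16 kidney cortex genes reached 10 FPKM or more.

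By tissue group, the kidney libraries were second for 18 members, the urinary tract for 14, the intestine for 9 and the follicles for 8. The same count was made for the other 364 genes whose highest library was liver but which were not chosen and not left out. There the kidney was second for 22.5%, the urinary tract for 1.65% (the bladder alone for 0.549%), the intestine for 8.52% and the follicles for 1.92%. These shares were not tested, because the second-highest level is part of the rule.

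Kidney cortex and medulla carried the highest levels of the 100 genes after liver. Their members summed to 829.3 and 674 FPKM, or 0.668% and 0.542% of the liver sum, and bladder followed at 659 FPKM (0.531%). No other library passed 0.16%: jejunum stood at 197 FPKM, pons at 187 and mammary replicate 2 at 173. The median over the 93 libraries was 40.4 FPKM, and 3 members made up a median of 75.2% of a library's sum, so the sum in most tissues rests on a few genes. Among the 11 skeletal muscles the sum ran from 0.268 in biceps femoris to 144 in the library labelled diaphragm, with a median of 8.29, and choroid plexus stood at 0.681. The libraries labelled diaphragm and gall bladder had a Spearman correlation of 0.994 over 18031 genes, which share library and depth, and they also resembled each other here, at 144 and 139 FPKM. The member of rank 31 stood at 65.0 FPKM in the former, 60.2 in the latter and 60.8 in bladder. A set of 9 libraries whose profile goes against the label in an earlier analysis of these data (diaphragm, gall bladder, adrenal, choroid plexus, corpus luteum, vesicular gland, bone marrow and both isthmus libraries) supplied the second-highest library of 9 members. Without them, 98 of the 100 genes were chosen again. In that new set of 100, kidney was second for 19, bladder for 13 and intestine for 9.

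**Figure D3:**
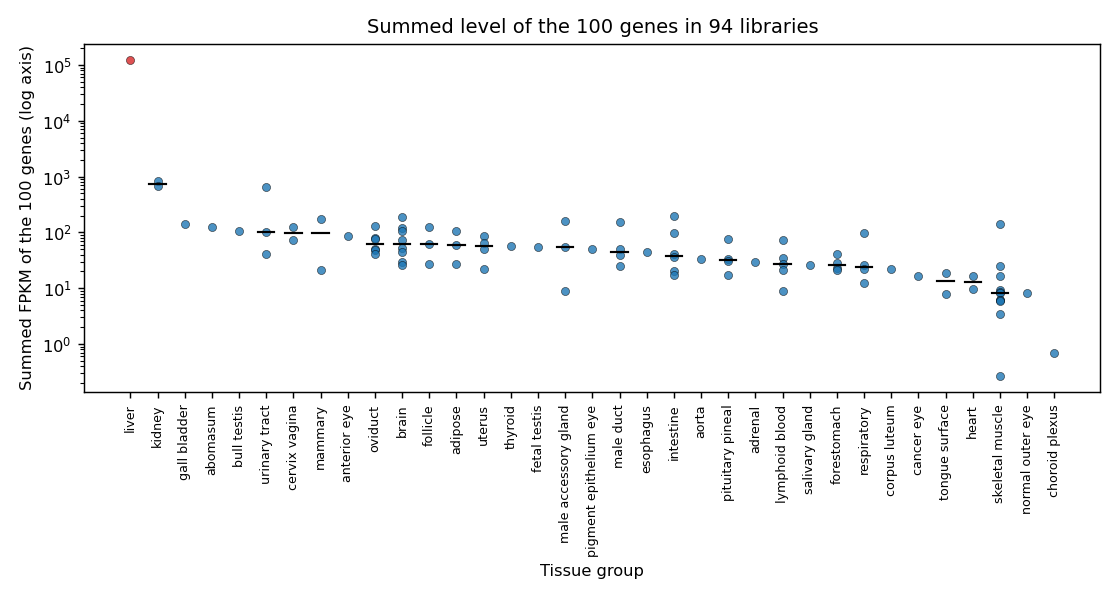
Summed FPKM of the 100 genes on a log axis, by tissue group; each point is a library, the bar is the median of a group of 2 or more, and groups are ordered by their median. Liver stands at 124173, the kidney libraries at 674 and 829.3, and the bladder (659) is the high point of the urinary tract.

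Bladder carried more of the members than the ureter and urethra libraries. It had 23 members at an FPKM of 1 or more and a sum of 659 FPKM, against 104 in the ureter and 40.8 in the urethra. Of these 23, only 5 reached an FPKM of 1 in the ureter and 4 in the urethra, while 13 reached it in a kidney library. The sum rests on few genes: the member of rank 98 alone stood at 360.9 FPKM, which is 54.8% of it, and the 3 highest members held 77.3%. The 12 members with bladder second stood at 0.449 to 360.9 FPKM there, a median of 0.588% of their liver level. With 1 bladder library these values have no replicate check.

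In 11 libraries the members were ranked much as in liver, at a small share of the liver level. These libraries were found by their Spearman correlation with liver across the 100 genes, which was 0.53 to 0.81 in them and at most 0.48 in the other 82. They were follicle replicates 1 and 3, ureter, anterior eye, pigment epithelium of the eye, corpus luteum, rumen papillae, contralateral intercaruncular endometrium, KPH fat, gluteus medius and esophagus. The correlation is across genes that share library and depth, and the set was picked after its values were seen, so it is a description. Of the 20 members most abundant in liver (all at 1856 FPKM or more), 14 to 20 were above 0 in these 11 libraries, against a median of 5 in the other 82. The counts overlapped. Among the other 82, the adrenal (16), the contralateral ampulla (15) and kidney medulla (14) reached or passed the esophagus (14), the lowest of the 11. The median share of the liver level over those 20 genes was 0.0349% in follicle replicate 3 (quartiles 0.0318% and 0.0423%), 0.0357% in follicle replicate 1, 0.0269% in the ureter and in the anterior eye, and 0.0062% at the lowest, in gluteus medius. In 68 of the other 82 libraries that median was 0. Not all members followed that share: of the 58 members above 0 in follicle replicate 3 and the 66 in the ureter, 45 in each lay within 2-fold of it. ENSBTAG00000016177 stood far above it, at 14.6 FPKM in follicle replicate 3 (0.655% of liver) and 63.3 FPKM in the ureter (2.84%).

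Kidney cortex and bladder showed a different pattern. There the median over the 20 abundant members was as high, 0.0328% and 0.0361%, but the quartiles were 0 and 1.0% in cortex and 0 and 0.334% in bladder, with some of these genes at several percent of liver and others listed at 0. The 2 identifiers left out of the choice give readings from genes that are no members. The first is ENSBTAG00000017121. At 23019 FPKM in liver, it stood at 0.0375% of that level in follicle replicate 3 (8.64 FPKM), 0.0306% in the ureter (7.05 FPKM) and 0.0256% in the anterior eye, near the members' medians there, and at 0.0746% in follicle replicate 1, above it. Over the 11 libraries it ran from 0.00748% to 0.0746%, with a median of 0.000793% in the other 82, of which 13 lay above the lowest of the 11. The other, ENSBTAG00000006354, at 3571 FPKM in liver, stood at 0.0329% in follicle replicate 3, near the members' median, but at 0.105% in the ureter, 0.0836% in the anterior eye and 0.208% in follicle replicate 1, well above it. Whether these low values are transcripts made in those tissues or liver transcripts carried over between samples or libraries was not tested.

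The same doubt applies to the second place of the members these libraries lead. The 11 libraries supplied the second-highest tissue of 15 members, among them the 5 with the largest gaps, all of which had follicle replicate 1 or 3 second. In 10 of the 15 the second level was under 0.1% of the liver level, and the median was 0.0494%. For the 82 members with another library second the median was 1.09%. All 8 members with a follicle library second lay between 0.0351% and 0.145% of liver, at 3.73 FPKM or less. The remaining follicle library, replicate 2, did not share this pattern: 5 members were above 0 in it, 2 of them among the 20 most abundant, its correlation with liver was 0.19, and ENSBTAG00000026917, ENSBTAG00000017294 and both identifiers left out were listed at 0.

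**Figure D4:**
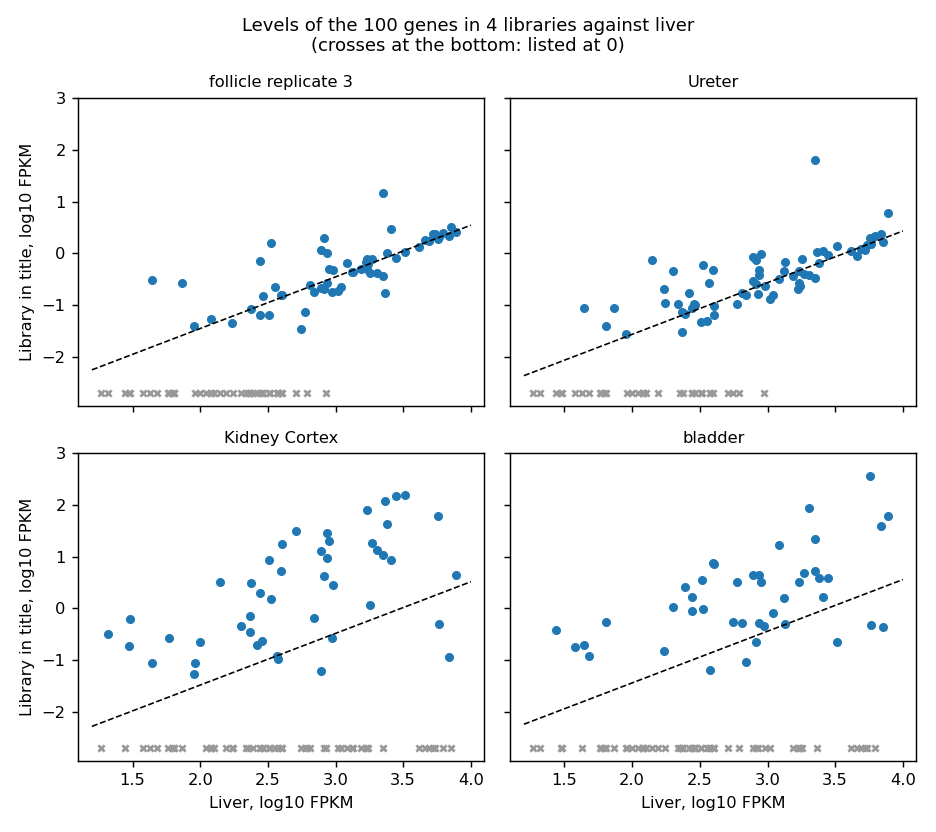
Levels of the 100 genes in follicle replicate 3, ureter, kidney cortex and bladder against liver, as log10 FPKM; crosses mark genes listed at 0 and the dashed line the median share of the liver level over the 20 most abundant members. In follicle replicate 3 and ureter 16 and 18 of those 20 lie within 2-fold of the line (0.0349% and 0.0269%), while 4 and 2 of the 100 genes lie over 10 times above it; in kidney cortex and bladder the points scatter widely.

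Tests were then made among the 93 libraries other than liver, so that the liver value did not enter. The highest of those 93 values is part of the rule, however, so the calls of members are not independent of the choice. In 11 of the 19 members called in kidney, that highest value was itself from a kidney library. The first test asked which genes stood higher in kidney than elsewhere. Of the 100 members, 51 reached 1 FPKM in 3 or more of the 93 libraries and were tested; the other 49 were too low outside liver. In kidney (n = 2 against 91), 19 members were called higher and 0 lower by limma with Benjamini-Hochberg adjustment over 17990 genes. Over all genes tested, 3.88% were called higher (698) and 0% lower, with 41 lower at an unadjusted p under 0.05 and 0 members among them. The 2 kidney libraries can themselves carry a gene toward the filter, so the share of tested members is not independent of the outcome. Of the 19, the members of ranks 21, 42, 59 and 64 passed the filter only because the 2 kidney libraries were counted. Their calls are given as a description and support nothing. The median difference was 0.02 on the log2 scale for the members tested and -0.01 for all genes, so the 19 stand beside 32 members without a call.

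ENSBTAG00000001915 (rank 85) led this comparison. It stood at 158.5 FPKM in cortex and 127.1 in medulla, and at 0 to 31.7 in the other 91 libraries with a median of 0. The groups did not overlap, and the difference was 6.70 ± 0.72 on the log2(FPKM + 1) scale (SE; limma adjusted p = 6.7e-13). Its liver level was 3259 FPKM, 20.6 times the cortex. ENSBTAG00000012398 (rank 86) stood at 119.7 FPKM in cortex and 116 in medulla, against 0 to 103.6 elsewhere, the highest being jejunum, and its difference was 6.66 ± 0.61 (SE; limma adjusted p = 4.35e-16). Both kidney libraries lay above the other 91 in 9 of the 51 members tested, these included, where 2.41% of all genes tested did so. All 9 were among the 19 called, and they include ranks 42 and 59, which passed the filter only through kidney. In each of the 9 the highest value outside liver, which is part of the rule, was by definition a kidney value. The count is therefore a description and supports nothing.

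The 19 genes spanned differences of 1.62 to 6.70. In 11 of them the kidney mean was 10 FPKM or more, and 11 had a kidney library as their second-highest tissue. For the other 8 another library exceeded the cortex, as in the member of rank 98, which stood at 61.6 FPKM in cortex, 48.6 in medulla and 360.9 in bladder. Cortex reached 0.294% to 6.10% of the liver level in these genes, with a median of 1.35%. Together they made up 92.4% of the members' sum in cortex and 93.3% in medulla. Most other members were low in kidney: 74 of the 100 were below an FPKM of 1 in both libraries and 45 were listed at 0 in both. The cortex and medulla libraries resembled each other closely in what they carried. Of the 26 members at an FPKM of 1 or more in either, 24 were higher in cortex, with a median difference of 0.22 and a range of -0.36 to 1.11 on the log2 scale, and 2 differed at least 2-fold. With 1 library of each this was not tested, and the same count over all genes was not taken. Leaving out the cortex or the medulla gave 15 or 17 members called, while the count over all genes fell to 321 or 365.

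**Figure D5:**
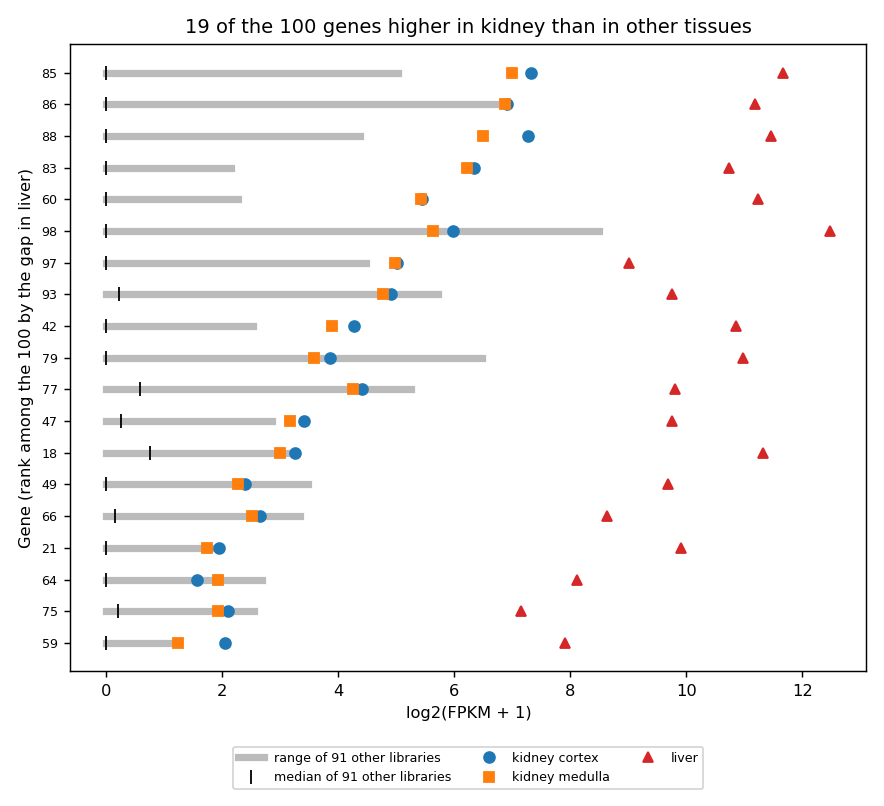
The 19 genes called higher in kidney, ordered by their difference and numbered by rank, on the log2(FPKM + 1) scale; circles and squares are kidney cortex and medulla, triangles liver, grey bars the range of the 91 other libraries and ticks their median. Liver lies right of both kidney libraries in every gene, and the other libraries reach past them in genes such as rank 98.

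The intestine was compared with the other non-liver tissues in the same way (n = 6 against 87). limma called 3 members higher, where 6.48% of all genes tested were called higher (1166), and 1 member lower, where 0.228% were. The share of members called higher, 5.88% of the 51 tested, is near the background. ENSBTAG00000001915 stood at 2.20 to 31.7 FPKM in the intestine with a median of 12.7, lowest in the descending colon and highest in the jejunum, and at 0 to 158.5 elsewhere with a median of 0. Of the other 87 libraries, 5 reached its lowest intestinal level. Its difference was 3.0 ± 0.50 on the log2 scale (SE; limma adjusted p = 2.61e-06). ENSBTAG00000012398 stood at 103.6 FPKM in the jejunum, 14.3 in the duodenum and 0.285 in the ileum, and was listed at 0 in the caecum and both parts of the colon. Its difference was 1.56 ± 0.52 (SE; limma adjusted p = 0.0453), and the call was lost in 6 of 12 alternatives. The difference was 0.58 without the jejunum and 1.14 without the duodenum, and the call also went with a pseudocount of 0.1, without the filter, after rescaling to equal totals and without the 9 libraries that go against their label. The third member called, of rank 30, stood at 0 to 17.4 FPKM in the intestine with a median of 2.26. Its difference was 1.44 ± 0.28 (SE; limma adjusted p = 7.71e-05). Its jejunum value of 17.4 FPKM is also its highest outside liver and so part of the rule. Without the jejunum 1 member was called higher.

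ENSBTAG00000016177, the member found in nearly all tissues, was the one lower in intestine. It was listed at 0 in the descending colon and reached at most 2.42 FPKM in an intestinal library (ileum), with a median of 1.87, against a median of 10.6 and a range of 0 to 123.6 in the others (difference -2.07 ± 0.56, SE; limma adjusted p = 0.00797). The groups overlapped, since some muscles and lymphoid tissues, the adrenal, the cancer eye and the choroid plexus were as low. The forestomach libraries had a lower median than the intestine, 1.55 FPKM, with a range of 0.916 in the rumen to 9.13 in the omasum.

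Along the gut, 23 members had an FPKM of 1 or more in any intestinal library. Of these, 9 were highest in the jejunum, 5 in the duodenum and 17 in the small intestine as a whole. The small intestine is 3 of the 6 intestinal libraries, and the same share over all genes was not taken, so this is a description. Only 6 of the members reached 10 FPKM in an intestinal library, and 13 of the 23 also reached an FPKM of 1 in kidney. Between small and large intestine (n = 3 against 3), limma called 1 member higher in the small intestine and 0 lower, where 0.0611% of all genes were called in each direction, 11 genes either way. At an unadjusted p under 0.05 in limma there were 8 members higher and 1 lower of the 51 tested, where 3.96% and 2.93% of all genes were; passing the filter on low values is not independent of these levels. The one called was ENSBTAG00000012201 (rank 48), a gene of 225 FPKM in liver. It stood at 1.14 FPKM in the duodenum, 1.37 in the jejunum and 1.85 in the ileum and was listed at 0 in all 3 large intestinal libraries, and these 3 were the only libraries besides liver at 1 FPKM or more. It therefore passed the filter on low values only through the small intestine, the group in which it was then called, so the call is given as a description and supports nothing. Its difference was 1.28 ± 0.11 on the log2 scale (SE; limma adjusted p = 0.0496). The call did not hold without the filter, after rescaling to equal totals, with quantile normalization (difference 0.96), without the jejunum or without any of the large intestinal libraries, and 0 members were called in each of these. In 7 of the tested members all small intestinal libraries lay above all large ones, where 5.84% of genes did so, and in 2 the reverse held, where 4.8% did. The 7 include ENSBTAG00000012201, which passed the filter only through the small intestine. This count is therefore also a description and supports nothing.

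FPKM totals ran from 585122 to 1062591 across the 94 libraries, and that of liver (623754) ranked 90. Between 7353 and 14198 genes per library reached 1 FPKM, and 11802 did so in liver. The read depth behind these values is unknown, so no counting intervals are given, and a value of 0 is only said to be listed at 0. The labels name no animal, so the p-values measure the spread between libraries, which within the kidney and intestine is a spread between different parts of an organ. In the kidney and intestine tests most of that spread comes from the 91 or 87 other libraries, which are of unlike tissues.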

How the data were processed

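Total RNA of 94 bovine tissue samples was sequenced, and the deposited values are FPKM for each gene and library. The submitters' processing notes name HISAT2, StringTie and the build UMD3.1. Tool versions, the annotation and any filter of the authors are not given in the sources here. Low values shared a common step between libraries in only a few genes (at most 2.82% of low genes within a window of 0.5%), so reads were not recovered and depth is unknown.

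Libraries were grouped by tissue label. Members were ranked on log2(FPKM + 1) in Python 3.11.15 with pandas 2.3.3. The members, the groups and the lists were chosen with earlier results of these data known. Of the 24616 Ensembl identifiers, 0 were matched to a symbol, since the RefSeq gene table (assembly ARS-UCD2.0) carries none of them. The prepared function lists, marker lists, promoter motifs and neighbour search were therefore not used, and under the naming rule at most 2 identifiers per direction are printed for each comparison.

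Comparisons without liver were fitted with limma 3.58.1 (R 4.3.3, trended variance prior, two-sided tests) over genes that reached 1 FPKM in 3 or more of the 93 libraries. Calls needed both a Benjamini-Hochberg p below 0.05 and a log2 change of 1 or more either way. Folds of low genes are understated on this scale. On simulated data with 200 of 17990 genes changed, changes of 4 on the log2 scale were recovered in 100% (intestine), 92% (kidney) and 81% (small against large intestine), and changes of 2 in 85%, 39% and 40%. Alternatives were another pseudocount (0.1), no filter, 2 rescalings, a percentile in the rule and libraries left out.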

Additional observations from a re-analysis of the deposited data

Results flagged for a closer look

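In the respiratory group the left lung stood apart: the 100 genes summed to 96.7 FPKM there, against 12.3 to 26.6 in the other 3 libraries. In the lymphoid and blood group white blood cells had 3 members at an FPKM of 1 or more and the other 4 libraries 5 each, a gap of 2 genes. The gap of the extreme library was set against the range of each group of 4 to 10 libraries, for the sum and for the number of members. Chance flags about 1 group in 20, and 18 such comparisons were made.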

How the results depend on the processing

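The choice of genes kept 92 of the 100 with a pseudocount of 0.1, 100 after rescaling to equal totals, 96 with quantile normalization, 98 without the 9 doubted libraries and 71 with the 90th percentile of the other libraries in place of the maximum. Second places were counted over the 100 genes chosen anew under each setting except the percentile, so they include genes that are no members. Kidney was second for 17 to 19 of these genes and bladder for 9 to 13. Intestine, second for 9 of the members, was second for 5 genes after rescaling to equal totals and for 6 with quantile normalization. It stayed at 9 with a pseudocount of 0.1 and without the 9 doubted libraries. The number of members higher in kidney stayed between 15 and 21 in all 8 alternatives. The count over all genes, 698, fell to between 321 and 365 when 1 kidney library was left out, where the lone library is assumed to vary like the others. Members higher in intestine, 3, were 7 with a pseudocount of 0.1 (2 of them shared), 5 without the kidney libraries, and 1 to 4 with 1 intestinal library left out. Between small and large intestine the count of 22 genes was 56 with a pseudocount of 0.1, 13 without the filter, 9 with quantile normalization, 206 with the spread taken from all 93 libraries, and 0 to 59 with 1 library left out. Its 1 member became 0 without the filter, 0 with quantile normalization, 0 after rescaling, 7 with the spread from all libraries, and 0 to 3 with 1 library left out. ENSBTAG00000012398 lost its call in the intestine in 6 of 12 alternatives and ENSBTAG00000012201 in 7 of 11, all in the same direction. The cause was not tested. No paired analysis was possible because the labels give no replicate numbers. The unknown depth limits what can be read from levels under 1 FPKM. Leaving out the 9 doubted libraries in the kidney and intestine tests was chosen after seeing the data and gave 19 and 2 members.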
